A study of Mus musculus with 48 samples.

Results

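The 36 genes described here carry out cell division: 23 act in mitosis and 13 in DNA replication, out of 55487 genes in the expression table. They were chosen by gene symbol. Each was followed through 48 RNA libraries from mouse mammary gland, in 16 groups of 3. Mitosis genes were Mki67, Top2a, Ccna2, Ccnb1, Ccnb2, Cdk1, Bub1, Bub1b, Tpx2, Prc1, Aurka, Aurkb, Plk1, Birc5, Cdc20, Cenpe, Cenpf, Kif11, Kif20a, Kif23, Nusap1, Ube2c and Foxm1. Replication genes were Mcm2, Mcm3, Mcm4, Mcm5, Mcm6, Mcm7, Pcna, Rrm1, Rrm2, Tyms, Cdc6, Cdt1 and Gins2. All 36 passed the filter of at least 1 TPM (the length-scaled share of transcripts that RSEM estimates) in at least 3 libraries.

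The mice carried either MMTV-rtTA/tet-op-Esr1 or MMTV-rtTA/tet-op-CYP19A1, where Esr1 encodes oestrogen receptor alpha and CYP19A1 encodes aromatase, the enzyme that makes oestrogens. Each of these 2 models gave 8 groups. Uninduced mice were 12, 18 or 24 months old. Mice induced for 1 week were 12 or 18 months old, mice induced for 6 or 12 months were 24 months old, and mice induced for 18 months were 30 months old. The labels of the 1-week samples carry the word Doxy, for doxycycline. An effect of the drug cannot be told apart from that of the transgene. The MMTV promoter limits rtTA mainly to mammary epithelium, whereas the RNA came from the whole thoracic gland with its fat, stroma and any adjoining muscle. Every group, uninduced ones included, has both transgenes of its model, and uninduced 30-month mice were not analysed here. The replicates are labelled as biological but not as separate mice, and the p-values reflect variation among samples that may be technical in part.

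Replication and mitosis are separate steps of the cell cycle. Cdc6 and Cdt1 load the ring of Mcm2 to Mcm7 onto origins, Gins2 belongs to the complex that turns this ring into an active helicase, and Pcna clamps the polymerases to DNA. Rrm1, Rrm2 and Tyms make the nucleotides. Later in the cycle Cdk1 with the cyclins Ccna2, Ccnb1 and Ccnb2 starts mitosis, kinesins and microtubule binders such as Kif11, Tpx2 and Prc1 build the spindle, and Bub1 and Bub1b hold chromosome separation until all kinetochores are attached. Cdc20 and Ube2c then mark cyclins for destruction, and Foxm1 is a transcription factor for many of these genes. In the mammary gland, epithelial cells divide in bursts driven by ovarian hormones. Krt8, a keratin of luminal epithelium, serves below as the measure of epithelial content.

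Promoters of the 2 gene groups held different sequence motifs. Windows from 250 bases before to 50 bases after the transcription start (RefSeq, GRCm38.p6) were found for 18 mitosis and 11 replication genes. Both strands were searched for the cell cycle homology region (CHR, TTTGAA or TTCGAA), for E2F sites (TTTCCCGC, TTTGGCGC, TTTCGCGC or TTTGCCGC) and for the CCAAT box. Matches may overlap each other, and a match describes the letters of the window only. A CHR was present for 14 of 18 mitosis genes (77.8%), 2 of 11 replication genes (18.2%) and 21.7% of all 27025 genes with a window. An E2F site was present for 1 of 18 mitosis genes (5.56%), which was Cdk1, for 6 of 11 replication genes (54.5%) and for 2.6% of all genes. The 6 were Mcm3, Mcm5, Mcm6, Mcm7, Cdc6 and Cdt1. CCAAT was found for 88.9% of mitosis genes, 72.7% of replication genes and 41.1% of all genes. Lists of further cell cycle genes had a CHR for 66.7% of 39 mitosis genes and 19.4% of 31 replication genes, and an E2F site for 10.3% and 29.0%.

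The following stretches show these motifs in capitals, 5′ to 3′ in the direction of transcription. They belong to the most abundant genes of each group by mean TPM whose upstream bases outside their own annotated transcripts hold a searched motif. Pcna and Mcm7 were not printed: Pcna had 116 bases outside the gene with 0 matches, and Mcm7 had 0 such bases. Top2a lies at chr11:99024200-99024439 and Mki67 at chr7:135716451-135716629, both on the minus strand. Mcm6 lies at chr1:128359706-128359955 on the minus strand and Rrm1 at chr7:102441445-102441694 on the plus strand.
Top2a: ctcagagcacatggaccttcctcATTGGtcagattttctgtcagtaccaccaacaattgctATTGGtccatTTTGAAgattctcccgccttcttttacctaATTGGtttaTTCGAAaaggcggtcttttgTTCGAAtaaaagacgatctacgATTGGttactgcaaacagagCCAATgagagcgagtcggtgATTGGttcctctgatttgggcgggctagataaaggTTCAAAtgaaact
Mki67: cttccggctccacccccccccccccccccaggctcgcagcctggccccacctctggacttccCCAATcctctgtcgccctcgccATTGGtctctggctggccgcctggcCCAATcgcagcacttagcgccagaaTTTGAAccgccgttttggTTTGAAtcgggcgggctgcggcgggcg
Mcm6: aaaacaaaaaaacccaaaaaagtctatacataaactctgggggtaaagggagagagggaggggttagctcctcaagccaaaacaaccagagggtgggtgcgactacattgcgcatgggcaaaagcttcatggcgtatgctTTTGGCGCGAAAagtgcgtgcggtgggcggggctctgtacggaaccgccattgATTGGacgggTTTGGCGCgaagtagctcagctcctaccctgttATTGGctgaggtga
Rrm1: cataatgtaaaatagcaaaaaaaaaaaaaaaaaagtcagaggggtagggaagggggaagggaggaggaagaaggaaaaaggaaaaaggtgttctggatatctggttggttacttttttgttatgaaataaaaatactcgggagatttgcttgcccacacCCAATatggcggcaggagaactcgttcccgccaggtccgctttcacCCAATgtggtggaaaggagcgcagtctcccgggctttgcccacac
Within these stretches Top2a had 4 CHR matches and Mki67 had 2, and neither had an E2F site. Mcm6 had 3 E2F matches, 2 of them overlapping, and no CHR. Rrm1 had 2 CCAAT boxes and neither of the other motifs.

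Replication genes were the more abundant and the steadier group. Median levels over the 48 libraries ran from 0.535 TPM (Cdc6) to 19.98 TPM (Pcna) for replication genes, and from 0.55 TPM (Bub1) to 4.84 TPM (Ube2c) for mitosis genes. TPM is scaled for transcript length, so levels can be set side by side between genes. The ratio of the highest to the lowest library had a median of 11.7 over replication genes (6.7 for Pcna to 25.4 for Mcm5) and of 37.7 over mitosis genes (8.5 for Aurka to 74.8 for Bub1b). At least 1 TPM in every library was reached by 7 replication genes and by 1 mitosis gene, Ube2c.

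Summed over genes, mitosis RNA ranged from 8.83 to 196.8 TPM (median 37.5) and replication RNA from 20.3 to 188.6 TPM (median 72.9). The ratio of the replication sum to the mitosis sum ran from 0.867 to 3.62 and was under 1 in 3 libraries. It had a median of 1.26 in the 24 Esr1 libraries and 2.33 in the 24 CYP19A1 libraries. In a bulk gland, fewer cells of a type and less RNA per cell cannot be told apart. Both extremes of the mitosis sum came from 1 group, the uninduced CYP19A1 glands at 12 months. Replicate 3 there was the highest library for 20 of the 36 genes and replicate 1 the lowest for 20.

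Those 3 libraries need to be seen before any comparison. Replicate 1 had 67.2% of its TPM in ribosomal RNA-like genes, against a median of 0.0753% over all libraries, and 9 of the 48 libraries exceeded 10%. Mki67, the antigen of the proliferation marker Ki-67, was at 0.49, 2.60 and 19.96 TPM in replicates 1 to 3. Top2a, the topoisomerase that untangles sister chromosomes, was at 0.51, 3.51 and 21.5 TPM. Krt8 was at 15.96, 128.4 and 109.0 TPM. Replicates 2 and 3 thus had similar Krt8 and mitosis sums of 32.7 and 196.8 TPM. Other library-wide measures were the number of genes at 1 TPM or more (11028 to 17605) and the share of TPM in protein-coding genes (15.9% to 38.8%). The read number behind each library is unknown beyond a minimum of 50M that the labels state.

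**Figure D1:**
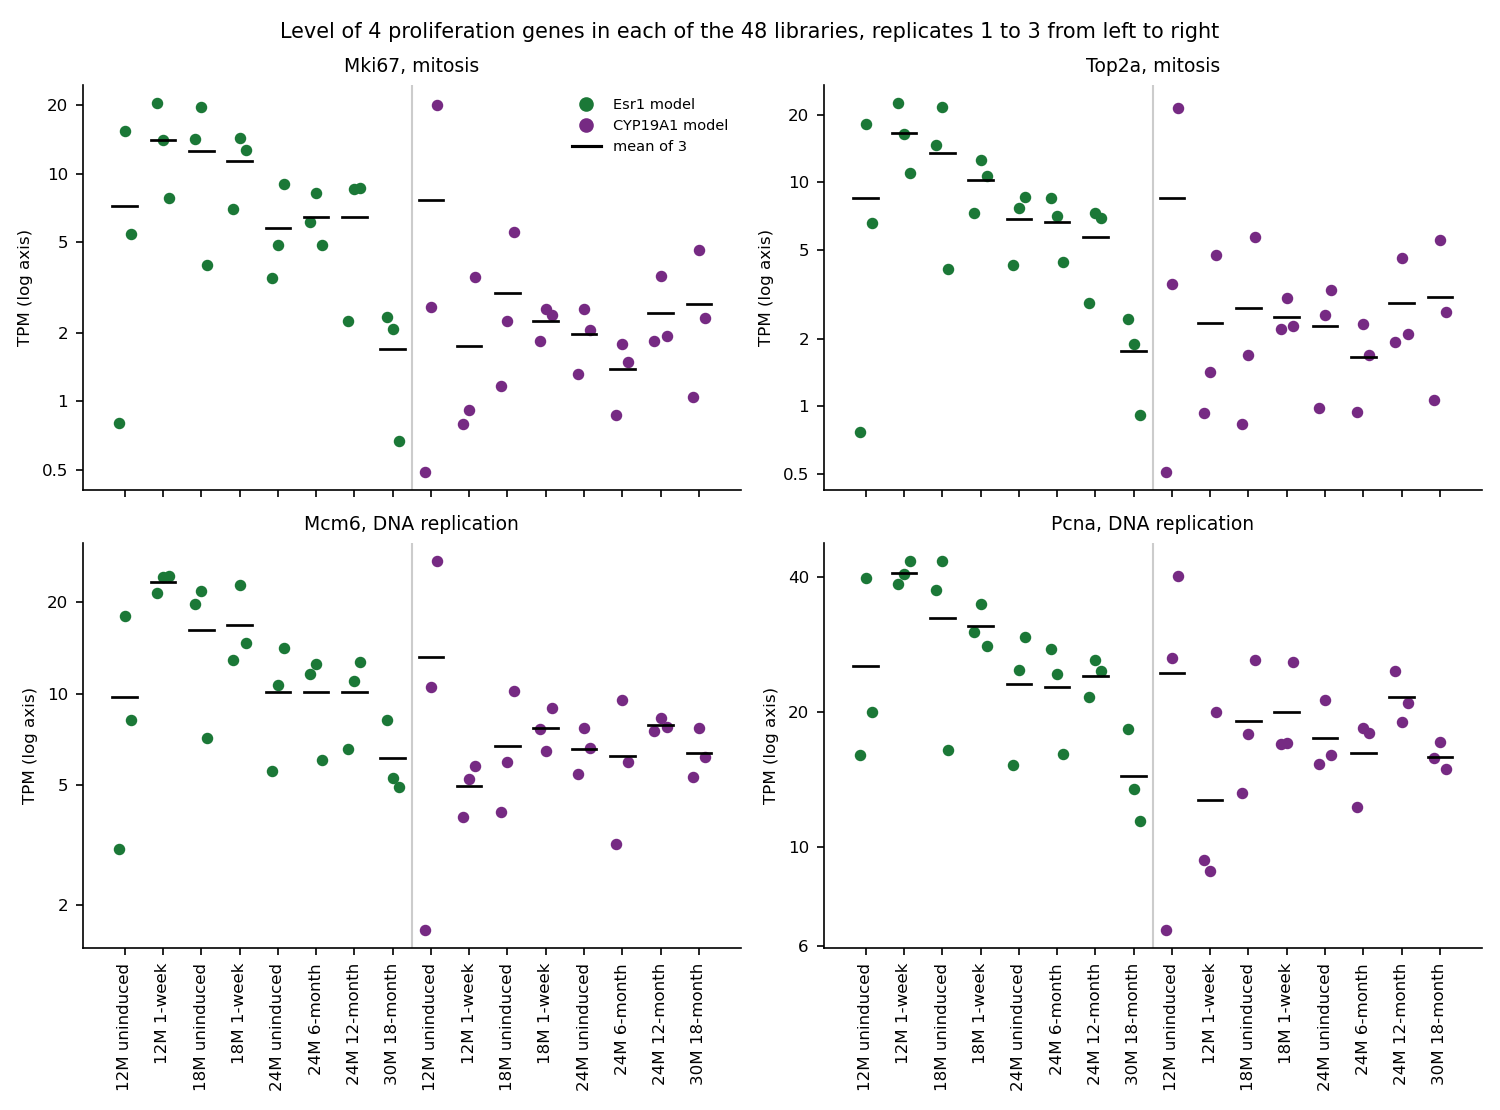
TPM on log axes of Mki67 and Top2a (mitosis) and of Mcm6 and Pcna (DNA replication) in each of the 48 libraries, by group, with points for libraries, bars for the mean of 3, and colours for the model. The 3 uninduced CYP19A1 libraries at 12 months span 0.49 to 19.96 TPM of Mki67, and Pcna varies least.

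Epithelium was present in every library: Krt8 ranged from 15.96 to 164.3 TPM, Epcam from 10.6 to 160.5 TPM, and the basal keratin Krt14 from 3.09 to 59.6 TPM. Esr1, the gene of 1 of the transgenes, ranged from 6.39 to 25.9 TPM in the Esr1 model, and each induced group overlapped the uninduced group of its age. At 12 months it was at 11.7, 14.7 and 9.54 TPM uninduced and 18.3, 10.7 and 14.9 TPM after 1 week, and at 18 months at 11.4, 8.88 and 15.1 TPM against 13.9, 13.8 and 25.9 TPM. At 24 months it was at 13.3, 16.3 and 10.5 TPM uninduced, 12.9, 12.2 and 8.86 TPM after 6 months and 6.39, 11.2 and 13.8 TPM after 12 months, and the 30-month libraries held 11.9, 14.3 and 8.51 TPM. These values do not separate the libraries labelled induced from those labelled uninduced. Mouse Cyp19a1 was at 0 to 0.29 TPM over all libraries and says nothing of a transgene that it does not measure. Induction below is therefore as labelled.

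Acta1, a skeletal muscle actin, ranged from 48.6 to 8710.5 TPM, so muscle RNA was also present in every library.

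Both gene groups were higher in libraries with more Krt8. To compare libraries with unlike ribosomal shares, TPM were rescaled by a median of ratios over 20045 genes, and each gene was fitted on log2 Krt8 within the 16 groups, so that differences between groups do not enter. With limma, 15 of 23 mitosis genes and 7 of 13 replication genes rose with Krt8 and none fell, where 30.9% of 20208 genes were called and 15.2% were called higher. The median slope was 0.36 log2 units per doubling of Krt8 for mitosis, 0.25 for replication and 0.00 for all genes.

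Among mitosis genes, Mki67 rose by 0.58 (SE 0.20, adjusted p = 0.0228) and Top2a by 0.58 (SE 0.20, adjusted p = 0.0266). Birc5, the survivin subunit of the chromosomal passenger complex, had a slope of 0.53 (adjusted p = 0.0101), and Cdc20, the activator of the anaphase-promoting complex, also had 0.53 (adjusted p = 0.0135). The kinesin Kif20a had the lowest adjusted p of the group, 0.00746, at a slope of 0.43. The 8 that were not called were Bub1, Prc1, Tpx2, Aurka, Aurkb, Kif23, Ube2c and Foxm1. Ube2c, the most abundant mitosis gene by its median, had a slope of 0.05 (95% interval -0.25 to 0.35), and Foxm1 had 0.18 (-0.01 to 0.36).

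Among replication genes Mcm6 had the largest slope, 0.51 (SE 0.10, adjusted p = 0.000238), Mcm7 of 0.33 (SE 0.07, adjusted p = 0.00116) and the loader Cdt1 of 0.28 (SE 0.07, adjusted p = 0.00293). Tyms, thymidylate synthase, rose by 0.37 (adjusted p = 0.00594). Mcm5, Mcm3 and Rrm2 were the other called genes, with slopes of 0.44, 0.22 and 0.33. Of the other subunits of the ring, Mcm4 had 0.11 (-0.05 to 0.27) and Mcm2 had 0.25 (0.03 to 0.46, adjusted p = 0.0707). Differences between slopes were not tested. Pcna had 0.15 (adjusted p = 0.10) and Rrm1 0.07 (-0.07 to 0.22).

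Single libraries bear on how many mitosis genes were called. The count of 15 was 3 without the uninduced 18-month Esr1 replicate 3, 4 without the 24-month Esr1 replicate 1 induced for 12 months, 7 without the uninduced 24-month Esr1 replicate 3, 8 without the uninduced 18-month Esr1 replicate 2 or the uninduced 12-month CYP19A1 replicate 1, and 9 without the uninduced 12-month Esr1 replicate 1. Replication calls numbered 4 without the first of these. With every library, 15.2% of all genes were called higher, and 3 or 4 of 23 mitosis genes is near that share. The number of all genes called also moved over these fits, and the share called higher in each is not given here. No excess of mitosis genes over all genes is therefore read from these low counts. Birc5, Cenpe, Kif20a, Mcm6, Mcm7, Tyms and Cdt1 kept their call in each of the 48 fits that left out 1 library. With TPM as deposited, all 23 mitosis and all 13 replication genes were called higher, but so were 13858 of the 20208 genes tested (68.6%).

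**Figure D2:**
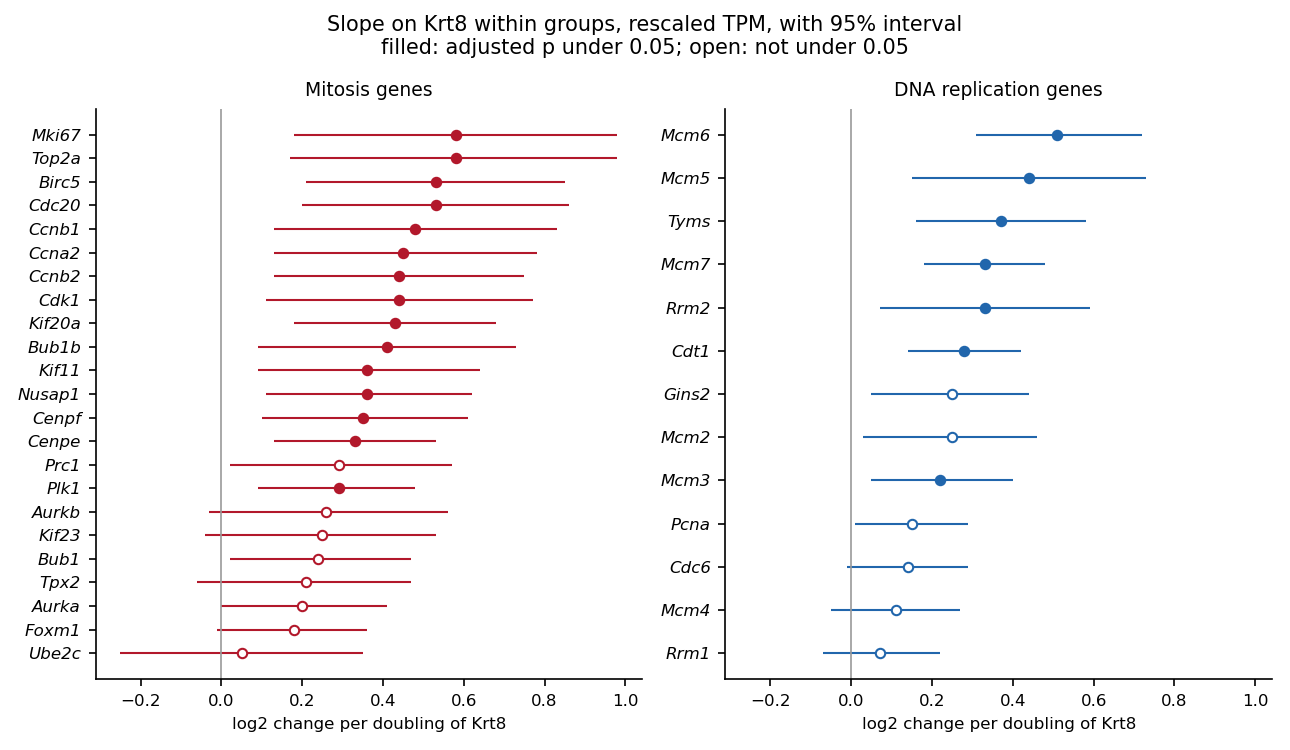
Slope of each mitosis and replication gene on Krt8 within groups (log2 change per doubling of Krt8, rescaled TPM) with its 95% interval, filled where the adjusted p was under 0.05. All 36 slopes lie above 0, from 0.05 (Ube2c) to 0.58 (Mki67 and Top2a).

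Lists of further cell cycle genes gave the following counts. Of 45 other mitosis genes 28 rose with Krt8 and none fell (median slope 0.26), led by Cks2 at 0.56, Pbk at 0.48 and Cdca3 at 0.46. Of 37 other replication genes tested, 15 rose and 2 fell (median 0.14), with Uhrf1, which maintains DNA methylation behind the fork, at 0.44 and the kinase activator Dbf4 at 0.41. Genes of entry into the cycle went both ways: of 31 tested, 7 rose and 6 fell (median 0.01). Myc had a slope of 0.60 and the cyclin D kinase Cdk4 of 0.42, whereas the kinase inhibitor Cdkn1a had -0.57 and E2f6 had -0.41. Of other cell type lists, 14 of 15 luminal markers (median 0.93), 7 of 10 basal markers, 7 of 7 milk genes and 5 of 8 T cell markers rose with Krt8, while 5 of 7 white adipocyte markers and 4 of 6 endothelial markers fell. The part of these other cell types in the slopes was not tested.

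Over the 48 libraries, which differ in model, age and ribosomal share, the mean rescaled log2 level of the mitosis genes correlated with Krt8 at r = 0.62 (rho = 0.62), and within groups at r = 0.44. For replication genes r was 0.64 (rho = 0.66), and 0.51 within groups. Mitosis and replication levels correlated more closely with each other, at r = 0.93 and 0.90 within groups. Krt8 was not the closest of the cell type measures. With basal and myoepithelial markers the mitosis level had r = 0.64 (0.5 within groups) and the replication level 0.7 (0.62 within groups). The mitosis level had r = 0.63 with luminal, 0.58 with milk and 0.49 with T cell markers. It had -0.55 with endothelial, -0.48 with white adipocyte and -0.42 with skeletal muscle markers. Differences between these correlations were not tested. Mitosis RNA per 100 TPM of Krt8 ranged from 25.4 to 267.6 (median 74.5).

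**Figure D3:**
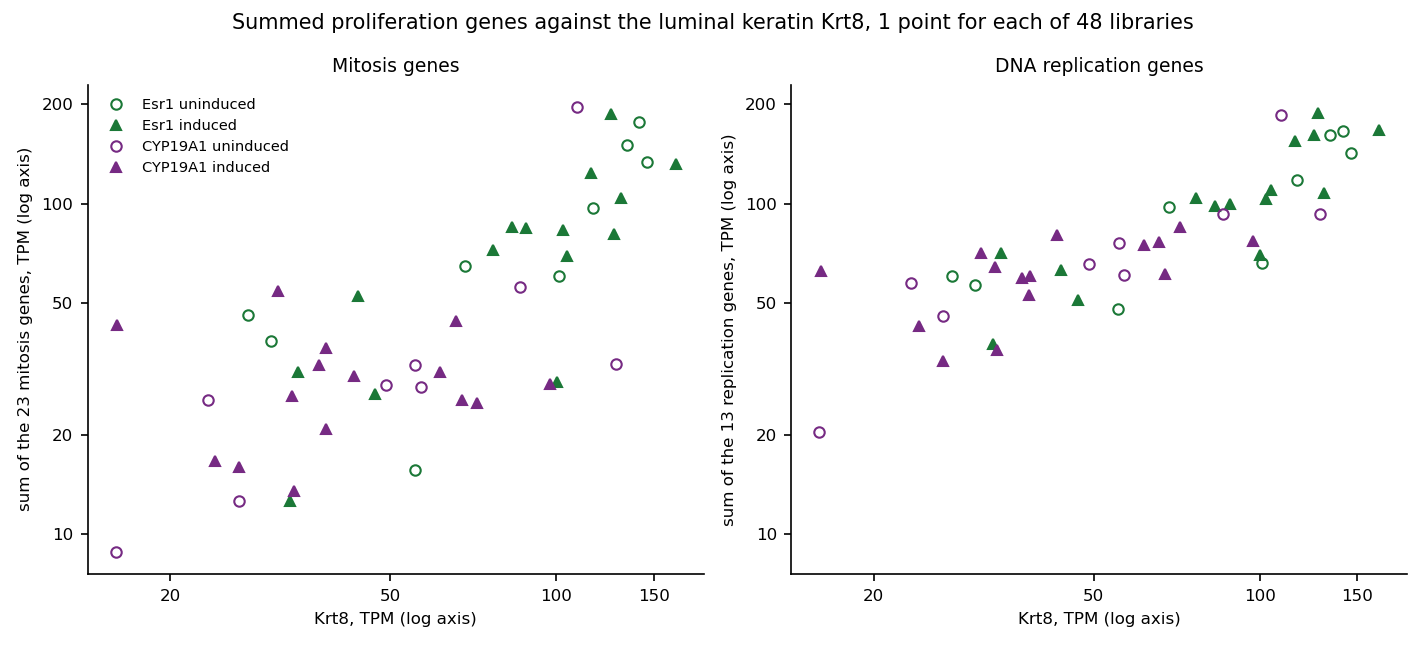
Summed TPM of the mitosis genes and of the replication genes against Krt8 TPM, all on log axes, with 1 point for each of 48 libraries, coloured by model and filled where the transgene was induced. Mitosis sums spread from 8.83 to 196.8 TPM and replication sums from 20.3 to 188.6 TPM as Krt8 goes from 15.96 to 164.3 TPM.

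The genes also varied together within groups. Over pairs of mitosis genes the median within-group r was 0.88 (253 pairs, 0.44 to 0.98), over pairs of replication genes 0.73 (78 pairs, 0.43 to 0.90) and over mixed pairs 0.74 (299 pairs, 0.18 to 0.93). All pairs come from the same 48 libraries and share their scaling.

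A few mitosis genes were higher in uninduced glands of the Esr1 model than of the CYP19A1 model, and the count depended on the fit. In the 9 uninduced Esr1 libraries against the 9 uninduced CYP19A1 libraries, 3 of 23 mitosis genes were higher in Esr1 glands (limma, adjusted p under 0.05) and 0 of 13 replication genes were called. Of all 20209 genes 2.95% were called and 1.97% were called higher in Esr1 glands. At an unadjusted p under 0.05 there were 18 mitosis genes and 1 replication gene, against 17.7% of all genes. With only the compared groups in the fit, 0 of the 36 were called, Prc1 included. Ribosomal RNA-like genes held over 10% of TPM in 4 of the 9 CYP19A1 libraries (67.2%, 22.2%, 40.3% and 15.6%) and in 0 of the 9 Esr1 libraries. Without such libraries, a setting added after seeing the data, 6 mitosis genes were called. Of all genes 12.7% were then called and 1.3% were called higher in Esr1 glands. The part of the ribosomal share in the difference was not tested. The median log2 difference was 0.75 for mitosis genes, 0.38 for replication genes and 0.10 for all genes.

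The largest of the 3 was Prc1, which bundles the microtubules of the central spindle (chromosome 7, 80294450 to 80316259, plus strand). Uninduced Esr1 libraries held 2.32 to 12.1 TPM of Prc1 (median 5.41) and uninduced CYP19A1 libraries 0.34 to 10.02 TPM (median 1.98). The log2 difference was 1.19 (SE 0.27, adjusted p = 0.00586). The 2 sets overlapped through the 12-month libraries: Prc1 was at 2.32, 10.5 and 5.41 TPM in Esr1 glands and 0.34, 1.98 and 10.02 TPM in CYP19A1 glands. At 18 months Prc1 was at 9.30, 12.1 and 4.29 TPM against 0.63, 2.12 and 3.07 TPM, and at 24 months at 4.11, 5.09 and 5.85 TPM against 1.59, 2.90 and 1.36 TPM. Neither of these later pairs of groups overlapped, and how many of all genes did not overlap there was not counted. In other comparisons of 3 against 3 libraries where it was counted, 10.1% to 35.6% of all genes did not overlap in 1 direction. The non-overlap is therefore not read as particular to Prc1.

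Bub1b, a checkpoint kinase relative that restrains Cdc20, had 0.45 to 7.07 TPM (median 2.62) in uninduced Esr1 libraries and 0.15 to 7.18 TPM (median 0.52) in uninduced CYP19A1 libraries. The difference was 1.10 (SE 0.29, adjusted p = 0.0270). Of the 9 CYP19A1 libraries, only replicate 3 at 12 months exceeded 1.43 TPM. Tpx2, which activates Aurora A on spindle microtubules, had 0.70 to 5.33 TPM (median 2.12) against 0.20 to 5.87 TPM (median 0.74), a difference of 0.83 (SE 0.24, adjusted p = 0.0486). Its highest CYP19A1 value was again that of replicate 3 at 12 months.

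Induced libraries did not enter the difference between the uninduced models. They did enter its p-values, because all 48 libraries share 1 estimate of the spread per gene. They are therefore not independent of these calls. In them Prc1 and Bub1b had the same order until 24 months. After 1 week of induction at 18 months Bub1b was at 2.42, 5.87 and 4.54 TPM in Esr1 glands and 0.52, 0.79 and 0.46 TPM in CYP19A1 glands. After 6 months of induction it was at 2.85, 3.33 and 2.10 TPM against 0.11, 0.39 and 0.35 TPM, and after 12 months at 1.21, 3.28 and 4.16 TPM against 0.67, 1.16 and 0.56 TPM. Prc1 did not overlap in these 3 pairs of groups either, and neither gene overlapped after 1 week of induction at 12 months. In that last pair ribosomal RNA-like genes held 36.7% to 49.8% of TPM in CYP19A1 libraries and 0.0159% to 0.0727% in Esr1 libraries. How many of all genes did not overlap in these pairs was not counted, so the non-overlap is not read as particular to these genes. At 30 months both genes overlapped: Bub1b was at 0.81, 2.07 and 0.41 TPM in Esr1 glands and 0.22, 1.23 and 0.74 TPM in CYP19A1 glands. Tpx2, also called, overlapped after 12 months of induction (Esr1 1.23, 2.53 and 2.63 TPM, CYP19A1 0.80, 1.69 and 1.08 TPM) and at 30 months. It did not overlap in the other induced pairs. These induced pairs were described and not tested.

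The other 33 genes did not pass the test. Top2a had a difference of 1.15 (SE 0.39, adjusted p = 0.102), Mki67 of 1.02 (SE 0.38, adjusted p = 0.141) and Foxm1 of 0.19 (SE 0.19, adjusted p = 0.603). The largest replication difference was that of Tyms, 0.54 (adjusted p = 0.261). Pcna had 0.43 (adjusted p = 0.326) and Mcm2 0.08 (adjusted p = 0.891). Krt8 itself had 0.63 (SE 0.36, adjusted p = 0.352). With Krt8 as a covariate the median differences were 0.44 for mitosis and 0.06 for replication genes, and Prc1 alone kept its call, at 0.89 (adjusted p = 0.0124).

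On rescaled TPM the call extended to 11 mitosis genes, Prc1, Bub1b, Tpx2, Nusap1, Top2a, Kif11, Cdk1, Ccnb1, Ccna2, Mki67 and Kif20a, with medians of 0.70 and 0.26 and still 0 replication genes. All genes then split into 1815 higher and 1566 lower, against 398 and 198 for TPM as deposited. Without the uninduced 12-month CYP19A1 replicate 3 the count was 19 mitosis genes and 1 replication gene. It was 11 without the uninduced 12-month Esr1 replicate 1 and 13 without the uninduced 18-month Esr1 replicate 3. It was 1 without any 1 of 8 libraries, namely the uninduced Esr1 replicates 2 and 3 at 12 months, 1 and 2 at 18 months and 3 at 24 months, and the uninduced CYP19A1 replicate 1 at 12 months and replicates 1 and 2 at 18 months. Prc1 was called in all 18 of these fits, with differences of 0.96 to 1.47. Over these fits, on TPM as deposited, 411 to 1349 of all genes were called in either direction, against 596 with every library.

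Other lists beside this difference were as follows. Of 45 further mitosis genes all had values above 0 (median 0.49), and Pttg1, the securin that holds back separase, and the kinetochore gene Spc25 were called higher in Esr1 glands at 1.32 (adjusted p = 0.00521) and 0.76 (adjusted p = 0.0491). None of 37 further replication genes and none of 31 genes of cycle entry was called, with 7 and 2 at an unadjusted p under 0.05. Luminal markers had a median of 0.56 (0 of 16 called, 3 unadjusted), milk genes of 3.18 (1 of 7 called), skeletal muscle markers of 0.88 (0 of 8) and T cell markers of 0.47 (0 of 8, 4 unadjusted). Luminal markers summed to between 195.0 and 1037.4 TPM over the uninduced Esr1 groups and between 103.6 and 796.8 TPM over the uninduced CYP19A1 groups, and none was at 0 in any group. T cell markers summed to between 10.4 and 53.6 TPM and between 3.80 and 33.9 TPM. Their part in the difference was not tested.

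Inducing Esr1 for 1 week at 12 months gave values above 0 for all 36 genes, of which 0 passed the test with limma. At an adjusted p under 0.05, 0.0099% of genes were called, and at an unadjusted p under 0.05, 5.51%. By the unadjusted p there were 10 of 13 replication genes and 5 of 23 mitosis genes. Median log2 changes were 0.94 for replication, 0.75 for mitosis and 0.22 for all genes, and on rescaled TPM 0.72 and 0.59. Single libraries moved these medians: without the uninduced replicate 1 they were 0.62 for replication and 0.28 for mitosis, and without the uninduced replicate 2 they were 1.33 and 1.27.

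Mcm5, a helicase subunit, had the largest change. Its TPM were 1.20, 12.1 and 2.08 before and 11.5, 11.9 and 16.8 after induction, a log2 change of 1.67 (SE 0.54, adjusted p = 0.754). Mcm6 was at 3.06, 18.1 and 8.16 TPM uninduced and 21.6, 24.3 and 24.4 TPM induced. The Mcm6 groups did not overlap, nor did those of Rrm1, Cdc6 and Cdt1, which makes 4 of 13 replication genes (30.8%) and 0 of 23 mitosis genes, where 10.1% of all genes were higher without overlap. In each case replicate 2 of the uninduced group was high: Top2a, the mitosis gene with the largest change, was at 0.77, 18.2 and 6.58 TPM uninduced and 22.6, 16.4 and 10.99 TPM induced (1.42, SE 0.68, adjusted p = 0.754). Mki67 had 1.3, Foxm1 0.72, Mcm2 1.23 and Pcna 0.78, each with an adjusted p of 0.754.

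Krt8 had a log2 change of 0.59 (SE 0.62, adjusted p = 0.757) in the same comparison, and with Krt8 as a covariate the medians were 0.70 for replication and 0.53 for mitosis. Luminal markers had a median of 0.76 (0 of 16 called) and summed to 366.8 to 909.1 TPM uninduced and 859.9 to 1141.7 TPM induced. Skeletal muscle markers had a median of -2.48, with 8 of 8 lower by the unadjusted p, and summed to 1725.5 to 13389.4 TPM uninduced and 321.5 to 5146.7 TPM induced. Brown adipocyte markers had a median of -1.87, with 3 of 5 lower by the unadjusted p, and summed to 78.8 to 619.5 TPM uninduced and 24.1 to 283.3 TPM induced. Medians were 0.84 for basal, 0.67 for macrophage, 0.66 for plasma cell, 0.66 for T cell and 0.62 for fibroblast markers, with none called. Macrophage markers summed to 59.7 to 155.6 TPM uninduced and 175.7 to 190.2 TPM induced, and plasma cell markers to 150.9 to 283.0 and 301.7 to 384.6 TPM. Of 4 salivary gland markers with values, 2 were tested (-0.13 and 2.45), and the sum of the 4 reached 25.7 TPM in 1 induced library against 1.24 TPM or less uninduced. No luminal, muscle, brown adipocyte, macrophage or plasma cell marker was at 0 in either group, and the part of these cell types was not tested. Further mitosis and replication genes had medians of 0.60 and 0.55, with 14 of 45 and 12 of 37 by the unadjusted p and none called.

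The same induction at 18 months gave medians of -0.10 for mitosis and 0.05 for replication genes, with 0 of 36 called, none by the unadjusted p, and 0% and 1.25% of all genes. Mcm2 had the largest replication change, 0.27 (SE 0.41), and Tpx2 the largest mitosis change, -0.25 (SE 0.42). On rescaled TPM the replication median was -0.12. Uninduced glands at 18 months held 14.2, 19.6 and 3.95 TPM of Mki67, beside 7.01, 14.3 and 12.8 TPM after induction. The test of the difference between ages called 0 of 36 genes, where 0% of all genes were called and 1.29% had an unadjusted p under 0.05. Its medians were 0.87 for mitosis and 0.85 for replication, with Top2a at 1.57 (SE 0.96) and Mcm5 at 1.46 (SE 0.77), both at an adjusted p of 1.0.

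CYP19A1 glands induced for 1 week at 12 months had values below 0 for all 36 genes and 0 called, with 0% of all genes called and 6.78% by the unadjusted p. Medians were -0.66 for mitosis, -0.67 for replication and -0.32 for all genes. Mki67 was at 0.49, 2.60 and 19.96 TPM uninduced and 0.79, 0.91 and 3.51 TPM induced (-0.96, SE 0.66, adjusted p = 0.548). Mcm7 had the largest replication change, -0.82 (SE 0.41), and Foxm1 was the 1 gene with an unadjusted p under 0.05, at -0.67. Ribosomal RNA-like genes held 36.7% to 49.8% of the TPM in all 3 induced libraries, and Krt8 had a log2 change of -1.30 (SE 0.62). The medians were -0.42 and -0.26 on rescaled TPM, and -0.09 and -0.07 with Krt8 as a covariate. That covariate was fitted on TPM as deposited, where Krt8 also carries the ribosomal share, and the median of all genes was then -0.01. Without uninduced replicate 1, 20 mitosis and 13 replication genes were called lower, among 12421 genes called. Without uninduced replicate 3 the medians were 0.08 and -0.04.

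The 1-week responses of the 2 models at 12 months were compared directly. Of 36 genes 0 were called, with 20 mitosis and 12 replication genes at an unadjusted p under 0.05, where the shares of all genes were 0.00495% and 15.9%. The median difference in log2 change, Esr1 minus CYP19A1, was 1.47 for mitosis, 1.58 for replication and 0.53 for all genes. Mcm5 had 2.38 (SE 0.77) and Mki67 2.26 (SE 0.93), each at an adjusted p of 0.312, beside Krt8 at 1.89 (SE 0.88). Medians were 1.06 and 0.95 on rescaled TPM and 0.65 and 0.71 with Krt8 as a covariate. Without the uninduced 12-month CYP19A1 replicate 1, 22 mitosis and 13 replication genes were called. Over the fits that left out 1 library, between 0 and 11928 of all genes were called. At 18 months CYP19A1 induction gave medians of -0.03 and -0.01, with 0 of 36 called, 0% and 1.46% of all genes, and Cdk1 at -0.29 and Cdt1 at 0.28 as the largest changes.

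Longer inductions at 24 months gave medians between -0.12 and 0.19 for both groups of genes. All 4 comparisons called 0 of 36 genes and had none by the unadjusted p. The 2 comparisons of each model share their uninduced libraries. In Esr1 glands the medians were 0.09 for mitosis and -0.01 for replication after 6 months (0% and 1.16% of all genes), with Cdc20 at 0.38 and Cdt1 at -0.18. After 12 months they were 0.02 and 0.04 (0.00495% and 1.38%), with Cdc20 at 0.27 and Mcm2 at 0.20, and -0.08 and -0.07 on rescaled TPM.

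In CYP19A1 glands the medians were -0.10 and -0.12 after 6 months (0% and 1.29%), with Prc1 at -0.42 and Mcm2 at -0.29. After 12 months they were 0.16 and 0.19 (0.0198% and 1.13%), with Kif23, a kinesin of the central spindle, at 0.47 and Pcna at 0.29. Mki67 was at 1.31, 2.55 and 2.06 TPM uninduced, 0.87, 1.78 and 1.48 TPM after 6 months and 1.83, 3.54 and 1.93 TPM after 12 months, so the 3 groups overlapped. Standard errors near 0.66 for Mki67 and 0.40 for Pcna set what these comparisons could resolve.

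Glands of 30-month Esr1 mice induced for 18 months had values below 0 for all 36 genes against 24-month mice induced for 12 months, and 0 were called. Age and length of induction change together here and cannot be told apart. Of all genes 0.139% were called and 15.9% had an unadjusted p under 0.05. By the unadjusted p there were 8 mitosis and 2 replication genes. Medians were -0.88 for mitosis, -0.71 for replication and -0.36 for all genes, and -0.64 and -0.34 on rescaled TPM. With a pseudocount of 0.1 in place of 1 the mitosis median was -1.47.

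Mki67 was at 2.24, 8.53 and 8.62 TPM in 24-month and 2.35, 2.08 and 0.67 TPM in 30-month glands (-1.37, SE 0.66, adjusted p = 0.314). Groups overlapped for Mki67 through 1 low 24-month library. They did not overlap for 13 of 23 mitosis genes (56.5%) and 5 of 13 replication genes (38.5%), where 35.6% of all genes were lower at 30 months without overlap, so the replication share was near that of all genes. Top2a was 1 of the 13, at 2.88, 7.29 and 6.94 TPM against 2.46, 1.90 and 0.91 TPM. Mcm3 had the largest replication change, -0.84 (SE 0.40, adjusted p = 0.314), from 3.96, 3.96 and 5.52 TPM to 2.34, 2.30 and 1.55 TPM. Foxm1 had -0.68, Mcm2 -0.80 and Pcna -0.73.

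Krt8 had a log2 change of -0.33 (SE 0.62) in that comparison, and with Krt8 as a covariate the medians were -0.72 and -0.54. Mitosis RNA per 100 TPM of Krt8 was 89.3 ± 7.59 (SD, n = 3) at 24 months and 41.2 ± 14.1 at 30 months. Replicate 3 at 30 months had 50.3% ribosomal RNA-like TPM and was the lowest library of all 48 for 7 genes. Fibroblast markers had a median of -1.05 (0 of 6 called), summing to 774.0 to 919.6 TPM at 24 months and 288.6 to 415.5 TPM at 30 months. Macrophage markers had a median of -0.93 (0 of 7), summing to 143.2 to 188.6 and 71.6 to 95.8 TPM. Luminal markers had a median of -0.37 and summed to 224.9 to 684.0 and 202.6 to 620.2 TPM. Their part in the values of the cell cycle genes was not tested. Further mitosis genes had a median of -0.74 (20 of 45 by the unadjusted p) and further replication genes of -0.53 (7 of 37), none called.

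The matching comparison in CYP19A1 glands called 0 of 36 genes, with 0% and 1.64% of all genes, and medians of -0.02 for mitosis and -0.28 for replication. Pcna had the largest replication change, -0.41 (SE 0.40), from 24.7, 19.0 and 20.9 TPM to 15.8, 17.1 and 14.9 TPM, and its groups did not overlap. Groups also did not overlap for Mcm4, Mcm7, Rrm1 and Gins2, which makes 5 of 13 replication genes (38.5%) and 0 of 23 mitosis genes, beside 21.6% of all genes that were lower without overlap. Krt8 had -0.64 (SE 0.62), and with Krt8 as a covariate the medians were 0.26 and 0.08. Whether the 2 models differ at 30 months was not tested.

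Age in uninduced glands was compared within each model, and the 2 comparisons of a model share their 12-month libraries. None of the 4 called any of the 36 genes, and none had a member at an unadjusted p under 0.05. In Esr1 glands all 36 genes had values above 0 from 12 to 18 months, with medians of 0.63 for mitosis and 0.38 for replication. Of all genes 0% were called and 2.76% had an unadjusted p under 0.05, and later pairs of shares follow this order. Mki67 had 1.01 (SE 0.66) and Mcm5 0.82 (SE 0.54), beside -0.12 for Krt8. From 12 to 24 months the medians were 0.07 and 0.24 (0.574% and 7.68%), with Cdk1 at 0.38 and Mcm5 at 0.50. Leaving out 1 library moved the medians to 18 months between 0.10 and 1.13 for mitosis and between 0.16 and 0.81 for replication, in both cases from the value without the uninduced 12-month replicate 1 to that without replicate 2. To 24 months, the medians were -0.49 and -0.12 without that replicate 1 and 0.54 and 0.75 without that replicate 2.

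In CYP19A1 glands the medians were -0.49 and -0.35 from 12 to 18 months (0.0099% and 5.61%), and -0.65 and -0.19 from 12 to 24 months (4.24% and 14.7%), beside 0.18 and 0.22 for all genes. Ccna2, the cyclin of S phase and early mitosis, had -0.78 and -0.85, and Rrm2, the regulated subunit of ribonucleotide reductase, had -0.54 and -0.53. These directions turn on 1 library: without the uninduced 12-month replicate 3 the medians were 0.24 and 0.35 to 18 months, and 0.15 and 0.35 to 24 months. The labels of 24- and 30-month samples are written in another pattern than those of 12 and 18 months, and a difference in handling between them cannot be told apart from age.

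**Figure D4:**
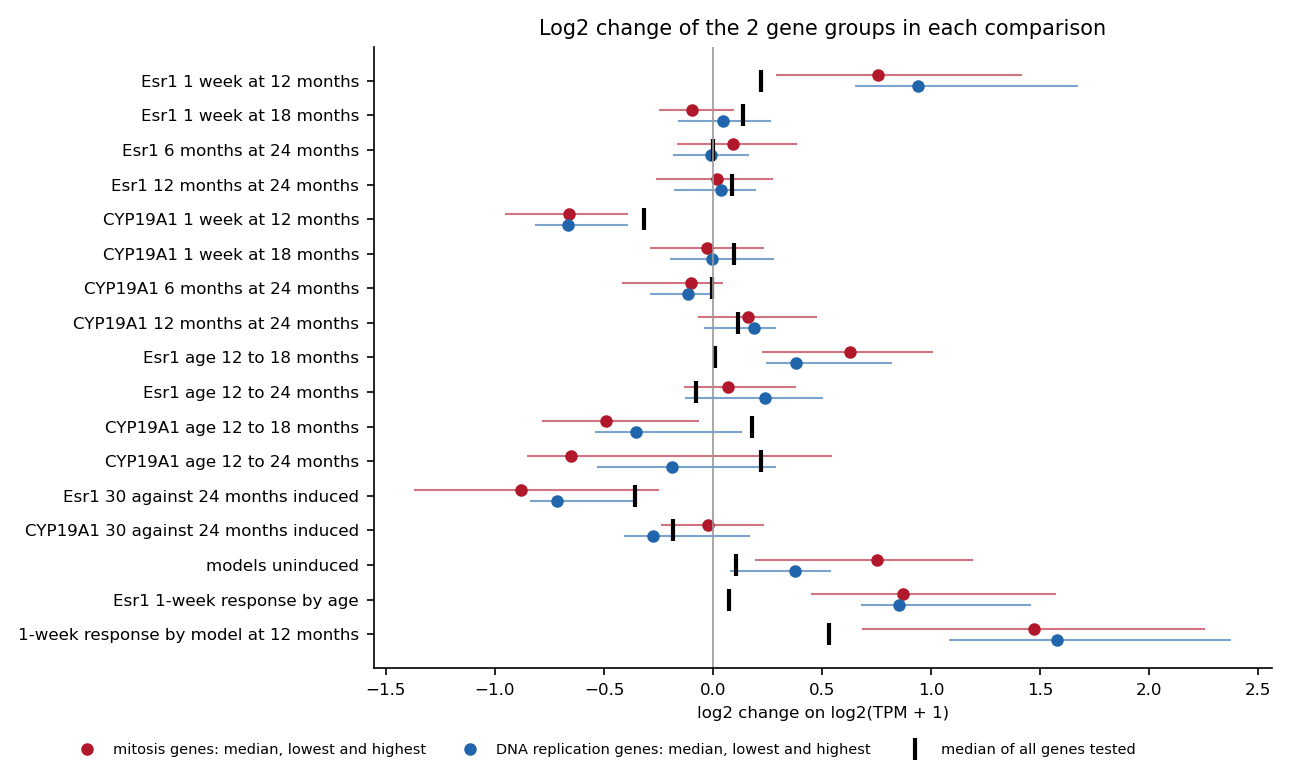
Median log2 change (point) and range (line) of the mitosis and of the replication genes in each comparison, on the log2(TPM + 1) scale, with a tick for the median of all genes tested. Both medians lie furthest above 0 for the 1-week response by model at 12 months (1.47 and 1.58) and furthest below 0 for Esr1 glands at 30 against 24 months (-0.88 and -0.71).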

How the data were processed

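Whole thoracic gland RNA was sequenced as 48 stranded libraries after removal of ribosomal RNA, with single 75 bp reads, per the labels' protocols. The submitters' processing notes name STAR 2.7.9a and RSEM 1.3.1 with the mm10 build, beside Trim Galore 0.6.5 and FastQC 0.11.9, and the annotation release is not given in the sources used here. The authors deposited TPM for 55487 genes, so read depth per gene is unknown and count models were not used. All 36 gene IDs matched GENCODE M21, which gave the coordinates, with their versions. Promoter windows came from RefSeq (GRCm38.p6), and genes without a window were left out of the motif shares.

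Tests used limma 3.58.1 (R 4.3.3) on log2(TPM + 1), with 1 mean per group over all 48 libraries, a mean-variance trend and two-sided p-values, adjusted by Benjamini-Hochberg over 20209 genes at 1 TPM or more in at least 3 libraries. Fold changes on this scale understate low genes. "Called" means an adjusted p under 0.05. The Krt8 slope was fitted on TPM rescaled by a median of ratios (factors 0.31 to 1.45). Krt8 as a covariate was fitted on TPM as deposited unless called rescaled. The fits were tested on simulated data. No 2 libraries were identical. Alternatives were another pseudocount, rescaled and protein-coding TPM, no filter, a replicate block, Krt8 as a covariate, the compared groups alone and each library left out. Fits without libraries over 10% ribosomal RNA-like TPM, and rescaled fits with the block or Krt8, were added after seeing the data.

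The members, the lists of other cell cycle genes and markers, and the tests were chosen with earlier results of these data known. Values are given for every called member, for the largest change in each gene group per comparison, for Mki67, Top2a, Foxm1, Mcm2, Pcna and Krt8, and from other lists for called genes, or the largest changes where more than 5 were called. Values of Mcm6 at 12 months were chosen after they were seen, as were the induced libraries shown for Prc1, Bub1b and Tpx2.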

Additional observations from a re-analysis of the deposited data

How the results depend on the processing

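For the uninduced models, the 3 mitosis calls became 11 on rescaled TPM, 13 on rescaled TPM with the replicate block, 6 without libraries over 10% ribosomal RNA-like TPM, 1 with no filter, 1 with Krt8 as a covariate and 0 with the compared groups alone. For the Krt8 slope, 15 mitosis and 7 replication calls became 23 and 13 on TPM as deposited, 3 and 4 with the replicate block, and mitosis 5 with no filter. Of all genes, 15.2% were called higher in the main fit and 68.6% on TPM as deposited. These shares were 13.5% with the replicate block and 6.12% with no filter. With the replicate block, the mitosis count of 3 of 23 was thus near the share of all genes. The cause of these changes was not tested. Leaving out each replicate in turn gave 1 to 19 mitosis and 0 to 1 replication calls for the uninduced models, 3 to 21 and 4 to 10 for the Krt8 slope, 0 to 20 and 0 to 13 for CYP19A1 at 1 week and 12 months, 0 to 22 and 0 to 13 for the difference between models at 12 months, and mitosis 0 to 1 for CYP19A1 from 12 to 24 months. Every other comparison stayed at 0 called members in these fits. Over all genes, these fits called 0 to 12421 for CYP19A1 at 1 week and 12 months and 0 to 11928 for the difference between models. For the Krt8 slope, the lowest mitosis count of 3 of 23 was near the 15.2% of all genes called higher with every library. Replicate numbers do not mark shared animals or days in the labels. In 1 of 14 comparisons every same-numbered pair correlated above 0.1 (range over comparisons -0.443 to 0.358), and with the replicate block the uninduced models kept a count of 3. No result changed sign among the single genes called. Medians changed sign more often: without the uninduced 12-month CYP19A1 replicate 3, the mitosis median of the 1-week induction became 0.08 while that of replication was -0.04, and the medians of both age comparisons turned positive. Over all genes, called for the uninduced models were 596 as deposited, 3381 rescaled, 1643 for protein-coding TPM, 909 with Krt8 as a covariate, 2569 without ribosomal-rich libraries and 211 with the groups alone. From 12 to 24 months in CYP19A1 glands 857 became 65 rescaled and 3 with the groups alone. The TPM give no depth, so the precision of low genes such as Cdc6 cannot be stated.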
